A study of Rattus norvegicus with 8 samples.

Results

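The genes described here are 36 genes of the extracellular matrix and of fibroblasts, the stromal cells that make it, in the rat oesophagus. They were chosen by name, from a list of collagens, proteoglycans, matrix glycoproteins and fibroblast surface molecules. All 36 had a probe set with their symbol among the 22093 genes measured, and for each the probe set with the highest mean was used. They were 5 fibrillar collagens, 2 fibril-associated collagens, 3 chains of collagen VI, 2 of collagen IV, 5 small leucine-rich proteoglycans, 4 genes of elastic fibres and cross-linking, 6 adhesive and matricellular proteins, 5 fibroblast surface markers and 4 other stromal genes.

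Expression was measured on 8 Affymetrix arrays from 4 rats, each of which gave 1 sample of oesophageal epithelial neoplasia and 1 of adjacent normal tissue. All rats were injected under the skin with N-nitrosomethylbenzylamine (NMBA), an oesophageal carcinogen in rats. The dose was 0.35 mg/kg, 3 times a week for 5 weeks, and the animals were killed at week 25. The 2 RcN+ rats ate a diet with normal riboflavin, the vitamin from which the flavin cofactors are made, and the 2 R0N+ rats ate a riboflavin-deficient diet throughout. The adjacent tissue therefore came from carcinogen-treated animals as well, the labels used here name no strain, sex or age, and RNA came from fixed, paraffin-embedded tissue. Animals are numbered 1 and 2 within each diet. Where values are given in pairs, animal 1 comes first.

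Fibroblasts secrete fibrillar collagens as procollagen triple helices, which assemble into the fibres of the lamina propria and submucosa. Small leucine-rich proteoglycans such as decorin and lumican bind these fibres and regulate their spacing, and lysyl oxidases cross-link them. Below the squamous epithelium of the oesophagus this stroma surrounds vessels and muscle, and matricellular proteins such as tenascin C, thrombospondin 1 and periostin are known for their induction in wounded and tumour-associated stroma.

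Arrays differed in quality. The separation of positive from negative control probe sets, given as the area under a receiver operating curve (0.5 is none, 1 complete), was 0.577 and 0.757 in RcN+ adjacent normal tissue and 0.696 and 0.694 in RcN+ neoplasia. It was 0.659 and 0.598 in R0N+ adjacent normal tissue and 0.617 and 0.60 in R0N+ neoplasia. The adjacent normal array of RcN+ animal 2 thus had the highest separation, and its gene values also had the widest SD (1.75, against 1.33 to 1.62 on the others). On this array 468 probe sets lay at the ceiling of the values (19.93), against 1479 to 1748 on the others. The median of all its probe sets was the lowest (4.77, against 4.91 to 5.11). Its values were thus distributed unlike those of the other arrays, for a reason that was not tested. The same array stands apart for the matrix genes too, so results are given with and without its animal.

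Signals of many members were low. The median of the negative control probe sets lay between 5.10 and 5.43 on the log2 scale of the arrays, and 38.4% to 46.5% of all genes exceeded it on an array. Of the 36 members, 21 were above it on all 8 arrays, 8 on some arrays and 7 on none. The 7 were Col5a1, both collagen IV chains Col4a1 and Col4a2, fibromodulin (Fmod), the cross-linking enzymes Lox and Loxl1, and fibroblast activation protein (Fap). The 95th percentile of the negative controls (10.64 to 12.11) was exceeded on any array by 5 members (13.9%), namely Dcn, Lum, Sparc, Vim and Ccdc80. The other 31 members (86.1%) thus lay within the range of the negative controls on every array. The same held for 21630 of all 22093 genes, so low signal was not particular to the members.

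The main pattern in the 36 genes was a single array. On the adjacent normal array of RcN+ animal 2, 24 of the 36 members (66.7%) had their highest value of all 8 arrays, against 17.8% of all genes. The share was not particular to the members. Of 37 cytosolic ribosomal protein genes, taken as a measure of RNA quality, 25 (67.6%) were also highest on the adjacent normal array of RcN+ animal 2. The sizes differed, taken as the median over genes of the value minus the gene's 8-array mean. For the ribosomal genes it was 0.75 on this array and 0.46 and 0.38 in RcN+ neoplasia. For the members it was 1.07 on this array and 0.12 and -0.07 in RcN+ neoplasia. The part of RNA quality in the pattern was not tested. The same array was the lowest for 28.9% of all genes but for 0 members. For 13 members that value lay more than 1 log2 unit above the next highest array. Over all 8 arrays 23 members ranged by more than 1 log2 unit, as did 23.9% of all genes, and over the other 7 arrays 12 members did. For the counts of 13 and 12 members the share of all genes was not computed.

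**Figure D1:**
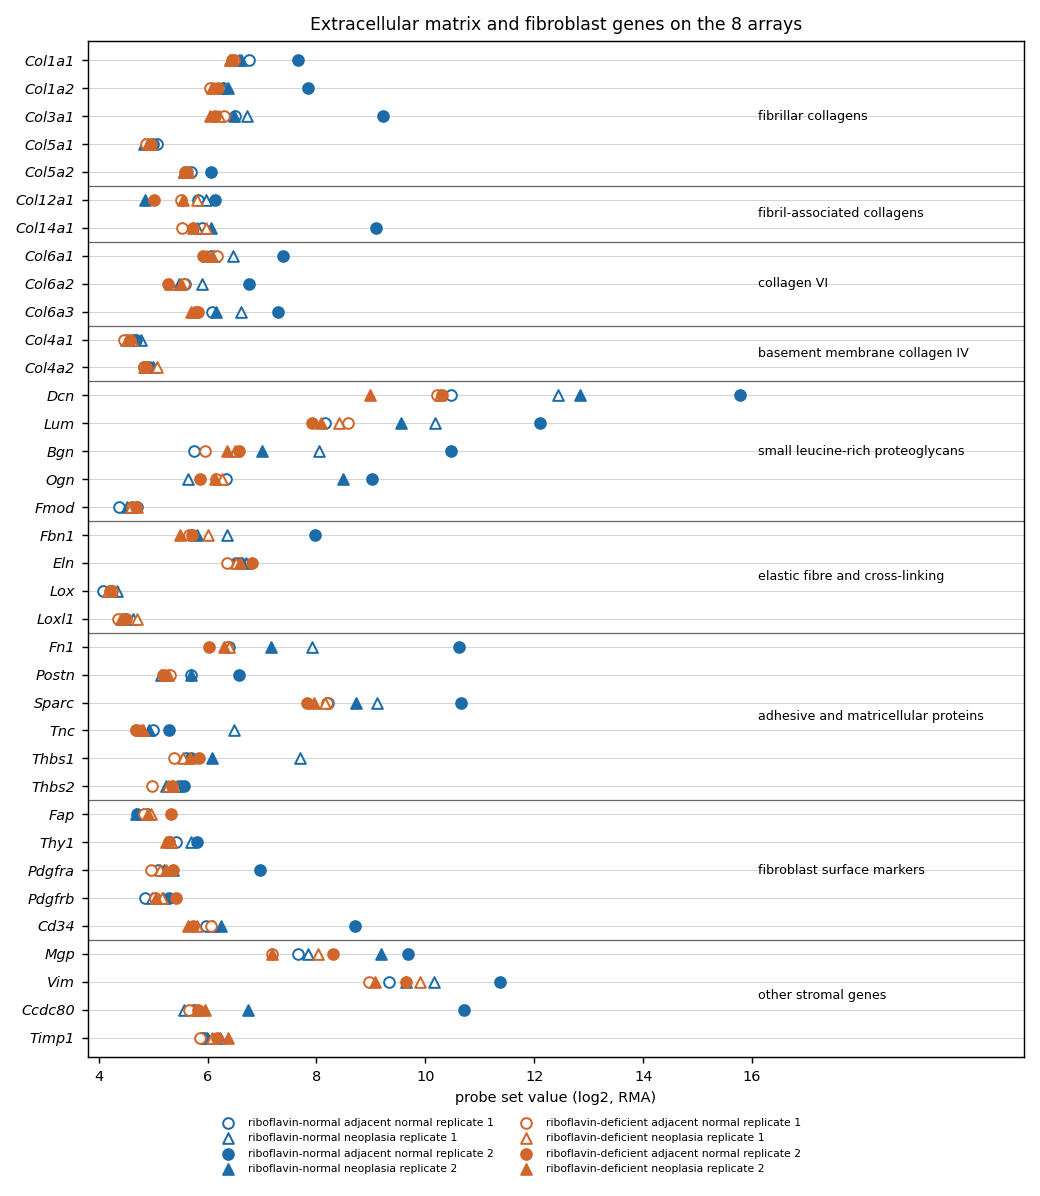
Value of each member on each array (log2 after robust multi-array average). Circles are adjacent normal tissue and triangles neoplasia, blue is riboflavin-normal (RcN+) and orange riboflavin-deficient (R0N+), and open and filled symbols are animals 1 and 2. The filled blue circle, adjacent normal tissue of RcN+ animal 2, lies at the right for 24 of the 36 genes.

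Fibrillar collagens form the tensile fibres of connective tissue, and Col1a1 and Col1a2 encode the chains of type I, the main one. Col1a1 measured 6.77 and 7.67 in RcN+ adjacent normal tissue, 6.58 and 6.61 in RcN+ neoplasia, 6.48 and 6.45 in R0N+ adjacent normal tissue and 6.42 and 6.41 in R0N+ neoplasia. Col1a2 measured 6.29 and 7.84, 6.28 and 6.37, 6.05 and 6.20, and 6.11 and 6.08 in the same groups. For both genes all 4 R0N+ arrays lay below all 4 RcN+ arrays, by little except for the adjacent normal array of RcN+ animal 2. A second probe set of Col1a2 had the same pattern, with 7.79 on that array and 6.05 to 6.30 on the others.

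Col3a1, the chain of the type III collagen of distensible tissues, measured 6.5 and 9.22 in RcN+ adjacent normal tissue, 6.73 and 6.48 in RcN+ neoplasia, 6.30 and 6.14 in R0N+ adjacent normal tissue and 6.21 and 6.04 in R0N+ neoplasia. The value of 9.22 stood 2.49 above the next, and the R0N+ arrays again lay below the RcN+ arrays. Col5a1 and Col5a2, whose type V collagen nucleates thin fibrils, spanned less. Col5a2 measured 5.69 and 6.07, 5.57 and 5.56, 5.58 and 5.63, and 5.64 and 5.57 in the same order of groups, so that the same array was highest. Col5a1 measured 5.08 and 4.99, 4.91 and 4.83, 4.87 and 4.96, and 4.97 and 4.91, a range of 0.25 below the negative control median.

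Of the 5 small leucine-rich proteoglycans, all except Fmod spanned a wider range than any fibrillar collagen. Decorin (Dcn) binds collagen fibrils and growth factors. Dcn measured 10.47 and 15.78 in RcN+ adjacent normal tissue, 12.43 and 12.84 in RcN+ neoplasia, 10.22 and 10.30 in R0N+ adjacent normal tissue and 10.26 and 8.98 in R0N+ neoplasia. Lumican (Lum), a keratan sulphate proteoglycan of collagen fibrils, measured 8.15 and 12.10, 10.18 and 9.55, 8.58 and 7.92, and 8.42 and 8.09 in these groups. Biglycan (Bgn), close in structure to decorin, measured 5.75 and 10.48, 8.05 and 7.0, 5.95 and 6.57, and 6.51 and 6.35. In all 3 genes the adjacent normal array of RcN+ animal 2 was highest and both RcN+ neoplasia arrays came next, above all R0N+ arrays and above the adjacent normal array of RcN+ animal 1.

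The other 2 proteoglycans differed from these. Osteoglycin (Ogn) measured 6.34 and 9.02 in RcN+ adjacent normal tissue, 5.64 and 8.49 in RcN+ neoplasia, 6.15 and 5.87 in R0N+ adjacent normal tissue and 6.26 and 6.13 in R0N+ neoplasia. Both tissues of RcN+ animal 2 were high and the other 6 arrays lay lower, so that the split was by animal and not by tissue. A second probe set of Ogn also had its 2 highest values in that animal (7.85 and 7.56, with 5.28 to 5.82 elsewhere). Fmod measured 4.37 and 4.70, 4.62 and 4.53, 4.62 and 4.69, and 4.60 and 4.71, with no group apart.

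The fibroblast surface markers were closer to background, and in only 2 of the 5 did the adjacent normal array of RcN+ animal 2 stand more than 1 log2 unit above the next. Platelet-derived growth factor receptor alpha (Pdgfra) marks fibroblasts of most organs, and Cd34 marks both adventitial fibroblasts and endothelium. Pdgfra measured 5.09 and 6.97 in RcN+ adjacent normal tissue, 5.20 and 5.36 in RcN+ neoplasia, 4.97 and 5.36 in R0N+ adjacent normal tissue and 5.12 and 5.24 in R0N+ neoplasia. Cd34 measured 5.97 and 8.71, 6.10 and 6.24, 6.07 and 5.74, and 5.80 and 5.65. For both, 1 array stood 1.62 and 2.47 above the next, and the remaining 7 spanned 0.38 and 0.59.

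Thy1, a surface glycoprotein of fibroblasts and neurons, measured 5.43 and 5.80, 5.69 and 5.33, 5.29 and 5.30, and 5.33 and 5.24. The receptor gene Pdgfrb, shared by fibroblasts and pericytes, measured 4.85 and 5.30, 4.98 and 5.18, 5.04 and 5.42, and 5.16 and 5.06. Fap, a serine protease of activated fibroblasts, measured 4.89 and 4.70, 4.68 and 4.82, 4.83 and 5.33, and 4.97 and 4.90. These 3 spanned 0.57 to 0.65 over 8 arrays, and Pdgfrb and Fap were highest in R0N+ adjacent normal tissue of animal 2, not in RcN+ animal 2. Fewer fibroblasts and less RNA per fibroblast cannot be told apart in such bulk samples.

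Set side by side, the classes had the same highest array but not the same size of difference. For each gene the mean over the 8 arrays was subtracted. The median over genes on the adjacent normal array of RcN+ animal 2 was then 2.98 for the 5 proteoglycans, 1.0 for the 5 fibrillar collagens and 0.38 for the 5 surface markers, against 1.07 for all 36 members and -0.07 for all genes. With arrays in order of rising control separation, the proteoglycan medians were -0.94, -0.87, -0.73, -0.57, -0.59, 0.43, 0.97 and 2.98. Each of these steps went up except that from the fourth to the fifth array. The fibrillar collagen medians were 0.03, -0.20, -0.26, -0.25, -0.19, -0.10, -0.09 and 1.0 in that order, and those of the surface markers -0.27, -0.06, -0.18, -0.10, -0.13, -0.06, -0.19 and 0.38, both nearly flat up to the last array. The part of control separation in these levels was not tested.

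**Figure D2:**
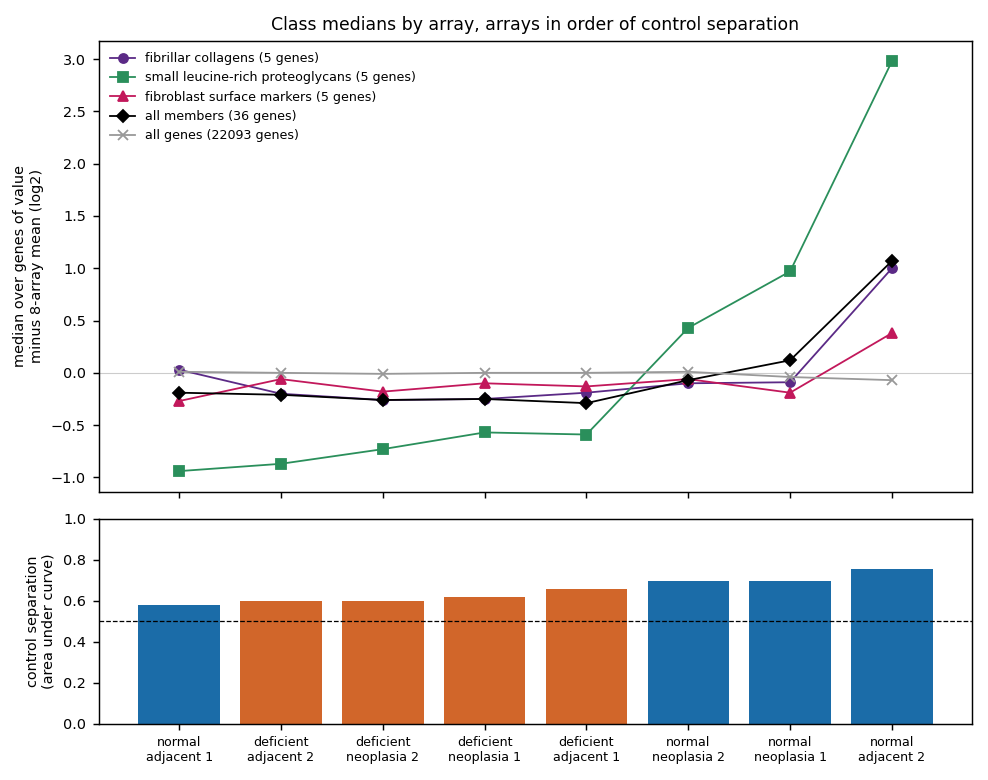
Upper panel, median over the genes of a class of their value minus their own 8-array mean (log2), on arrays in order of control separation. Lower panel, control separation of the same arrays (area under the curve, dashed line at no separation), blue for riboflavin-normal and orange for riboflavin-deficient. The proteoglycans run from -0.94 to 2.98, and the fibrillar collagens and surface markers stand out on the last array only.

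Promoters of the classes compared are shown for their sequence, and any part of it in the shared high array was not tested. RefSeq promoter sequences (build GRCr8) were matched for 22 of the 36 members, and 1 gene of each class with a match is given, the 250 bases before the annotated start, 5′ to 3′ on the strand of the gene. Capitals mark CCAAT or TATAAA on either strand, ATTGG being CCAAT on the opposite strand.
Col1a2, chr4:33518307-33518556, plus strand: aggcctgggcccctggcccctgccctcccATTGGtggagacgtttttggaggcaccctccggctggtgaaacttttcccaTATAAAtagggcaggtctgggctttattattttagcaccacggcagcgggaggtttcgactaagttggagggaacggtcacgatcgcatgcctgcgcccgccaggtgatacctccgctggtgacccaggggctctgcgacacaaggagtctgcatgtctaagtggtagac
Lum, chr7:34245456-34245705, plus strand: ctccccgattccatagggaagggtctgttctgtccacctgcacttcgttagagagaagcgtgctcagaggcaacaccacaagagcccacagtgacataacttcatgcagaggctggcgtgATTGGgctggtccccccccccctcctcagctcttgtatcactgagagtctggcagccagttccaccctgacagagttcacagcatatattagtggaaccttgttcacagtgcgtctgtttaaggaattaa
Pdgfra, chr14:33408517-33408766, minus strand: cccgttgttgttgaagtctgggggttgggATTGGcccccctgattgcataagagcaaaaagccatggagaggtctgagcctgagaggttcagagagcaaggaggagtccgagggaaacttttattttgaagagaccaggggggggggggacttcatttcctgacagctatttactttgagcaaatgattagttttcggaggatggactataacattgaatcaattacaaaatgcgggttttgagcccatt
CCAAT was found on either strand in 8 of the 22 members, among them these 3, and in 34.0% of the 33469 windows in the table. The matched genes Col5a1, Col5a2, Ogn, Fap and Cd34 of the same classes lacked it. TATAAA was found in 5 of 22 and in 12.9% of all windows. Of the other motifs searched, GGGCGG was found in 9 of 22 (30.5% of all windows), TGANTCA in 2 (6.34%) and CAGAC in 14 (42.9%). In Col1a2 the reverse CCAAT began 221 bases and TATAAA 170 bases before the annotated start.

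Outside these 3 classes, the genes with the largest mean tissue differences were Ccdc80, Col14a1, Thbs1 and Fn1. Ccdc80, a secreted matrix protein of fibroblasts and fat, measured 5.76 and 10.71 in RcN+ adjacent normal tissue, 5.57 and 6.75 in RcN+ neoplasia, 5.66 and 5.82 in R0N+ adjacent normal tissue and 5.81 and 5.96 in R0N+ neoplasia. Col14a1, a collagen that decorates fibrils, measured 5.89 and 9.09, 5.80 and 6.07, 5.53 and 5.74, and 5.97 and 5.74. Fibronectin (Fn1), an adhesive glycoprotein, measured 6.40 and 10.61, 7.91 and 7.17, 6.35 and 6.03, and 6.40 and 6.30. In all 3 the adjacent normal array of RcN+ animal 2 was highest, by 3.96, 3.02 and 2.71, and only Fn1 also had both RcN+ neoplasia arrays above the others.

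Thrombospondin 1 (Thbs1), an activator of latent TGF-beta, had a different high array. It measured 5.60 and 5.70 in RcN+ adjacent normal tissue, 7.69 and 6.09 in RcN+ neoplasia, 5.39 and 5.84 in R0N+ adjacent normal tissue and 5.55 and 5.67 in R0N+ neoplasia. Neoplasia of RcN+ animal 1 was the highest array for 4 members (7.58% of all genes), of which Col4a1 and Lox lay below the negative control median. Tenascin C (Tnc) was the other, with 6.49 in neoplasia of RcN+ animal 1 and 4.68 to 5.29 on the other 7 arrays. A second probe set of Col12a1, which encodes another fibril-associated collagen, was also highest there (6.92, with 5.16 to 5.74 elsewhere), although its main probe set was highest in adjacent normal tissue of RcN+ animal 2 (6.14). On this neoplasia array the basal keratin gene Krt14 measured 15.77, against 8.07 to 11.15 on the others.

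Of the remaining members, the 3 collagen VI chains, fibrillin (Fbn1), osteonectin (Sparc), vimentin (Vim), periostin (Postn), matrix Gla protein (Mgp) and Thbs2 were highest on the adjacent normal array of RcN+ animal 2. There they stood 0.07 (Thbs2) to 1.64 (Fbn1) above the next array. Mgp, an inhibitor of calcification, resembled Ogn in being high in both tissues of that animal (9.69 and 9.19, with 7.19 to 8.30 elsewhere). Both chains of basement membrane collagen IV, elastin (Eln), Lox, Loxl1 and the protease inhibitor gene Timp1 spanned 0.26 to 0.51 over all arrays.

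The first comparison asked how the matrix genes differed between neoplasia and the adjacent tissue of the same animal. In the pair of RcN+ animal 2, neoplasia was lower for 31 of 36 members, where 39.1% of all genes were lower, and 18 members were lower by more than 1 log2 unit. In the pair of RcN+ animal 1 neoplasia was higher for 26 of 36 members (42.6% of all genes), and 6 were higher by more than 1, namely Dcn, Lum, Bgn, Fn1, Tnc and Thbs1. The shares of all genes that differed by more than 1 in these pairs were not computed, so the counts of 18 and 6 have no background beside them. In R0N+ animals 1 and 2 neoplasia was lower for 11 and 22 members (49.4% and 50.6% of all genes). The member medians of the pairs were 0.18, -0.97, 0.10 and -0.04 in the order RcN+ 1, RcN+ 2, R0N+ 1 and R0N+ 2, with medians over all genes of -0.06, 0.07, 0.00 and 0.00. The member medians thus had opposite signs in the RcN+ pairs and were near 0 in the R0N+ pairs. Single members had opposite signs in the RcN+ pairs in 23 of 36 cases, a share of 63.9% that is near the 61% of all genes. In the R0N+ pairs 25 members had opposite signs (69.4%), against 50.6% of all genes.

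The RcN+ pairs differed most in the proteoglycans. In neoplasia of RcN+ animal 1, Dcn was 1.96 higher (3.88-fold), Lum 2.03 higher (4.09-fold) and Bgn 2.30 higher (4.93-fold) than in its adjacent tissue. In RcN+ animal 2 the same genes had differences of -2.94 (7.69-fold lower), -2.55 (5.85-fold lower) and -3.48 (11.2-fold lower). Class medians in these pairs were 1.96 and -2.55 for the proteoglycans, -0.12 and -1.06 for the fibrillar collagens and 0.13 and -0.48 for the surface markers. The fibrillar collagen median minus the proteoglycan median was therefore -2.08 in RcN+ animal 1 and 1.49 in RcN+ animal 2, and 0.01 and -0.07 in the R0N+ pairs, so no order of the classes held over the 4 pairs. Control separation differed between neoplasia and adjacent tissue by 0.119, -0.063, -0.042 and 0.002 in the 4 pairs. The ribosomal protein genes, taken as a measure of RNA quality, had medians of 0.96, -0.35, -0.45 and -0.01 in the same pairs. The part of either measure in the differences of the members was not tested.

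**Figure D3:**
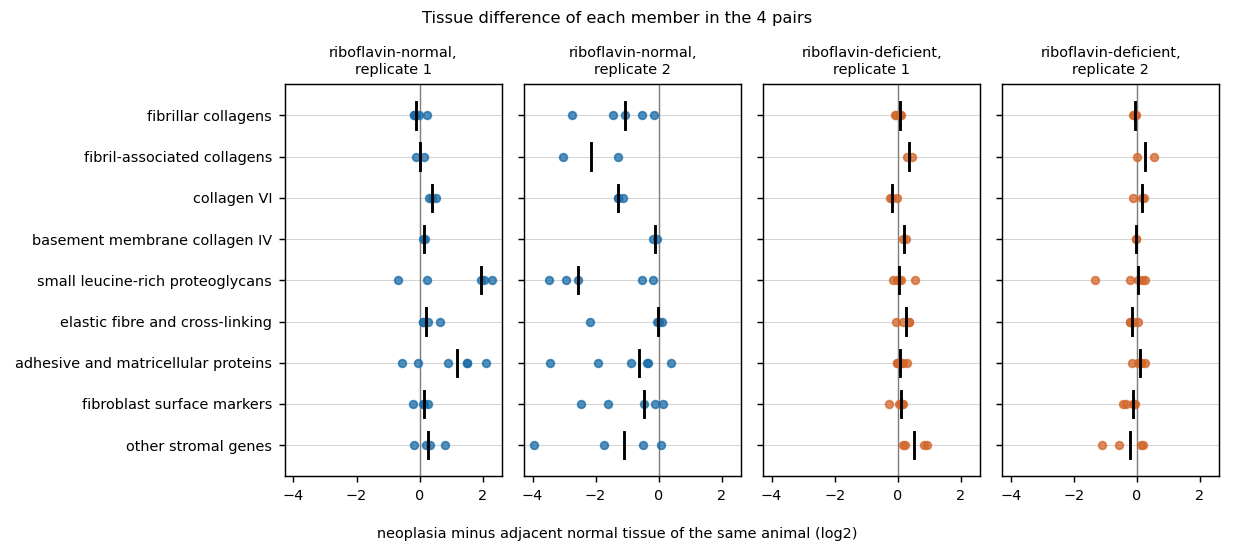
Neoplasia minus adjacent normal tissue (log2) for every member, in 1 panel per animal and 1 row per class. Points are genes and black bars class medians. The proteoglycan bar lies at 1.96 in RcN+ animal 1 and at -2.55 in RcN+ animal 2, and most points of the R0N+ animals lie close to 0.

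Only Col1a1 was lower in all 4 pairs (by 0.19, 1.06, 0.06 and 0.04), where 3.79% of all genes were, and only Timp1 was higher in all 4 (0.33, 0.06, 0.22 and 0.20), where 4.1% were. For the mean of the 4 pairs 27 of 36 members were lower and the median was -0.15 (0.00 over all genes). The largest differences were those of Ccdc80 (-0.97, SE 0.62), Col3a1 (-0.67, SE 0.50), Col14a1 (-0.67, SE 0.49) and Cd34 (-0.67, SE 0.44). By limma 0 of 36 members passed at an adjusted p under 0.05, as did 0% of all genes, and each member had an adjusted p = 1. At an unadjusted p under 0.05 there was 1 member, Postn (-0.35, SE 0.12), and 2.2% of all genes. Without RcN+ animal 2 the member median was 0.12, with 9 of 36 lower, and without RcN+ animal 1 it was -0.44, with 31 lower.

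Within the RcN+ diet the member median was -0.38 with 27 of 36 lower, and within the R0N+ diet 0.01 with 15 of 36 lower (0.00 over all genes in each). In the RcN+ pairs the largest values were those of Ccdc80 (-2.08, SE 0.88), Col14a1 (-1.56, SE 0.70) and Col3a1 (-1.25, SE 0.70). Members lower in both RcN+ pairs numbered 9 (17.5% of all genes) and those higher in both 4 (21% of all genes). Of these, Postn was lower by 0.55 and 0.87 and Ogn by 0.70 and 0.53, while Thbs1 was higher by 2.09 and 0.39. By limma 0 of 36 members passed (0% of all genes), and these 3 were the members at an unadjusted p under 0.05, where 3.65% of all genes were. From animal 1 alone the RcN+ median was 0.18, and from animal 2 alone -0.97.

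In the R0N+ pairs the largest values were those of Dcn (-0.64, SE 1.18), Col12a1 (0.41, SE 0.37) and Col14a1 (0.22, SE 0.70). Both pairs were lower for 4 members (24.6% of all genes) and higher for 7 (24.2%). By limma 0 members passed and 0 were at an unadjusted p under 0.05, with 0% and 1.92% of all genes. The intervals leave room for sizable differences, as for Col1a1 (-0.05, 95% interval -0.71 to 0.61) and Dcn (-3.74 to 2.46). Dcn itself differed by 0.04 and -1.32 and Mgp by 0.82 and -1.10 in these pairs, the only members with a difference above 1 in either.

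The difference between the diets in the tissue effect (R0N+ minus RcN+) had a member median of 0.34, with 28 of 36 above 0 (0.00 over all genes). Ccdc80 (2.22, SE 1.25), Col14a1 (1.78, SE 0.99) and Thbs1 (-1.24, SE 0.60) had the largest values. By limma 0 members passed (0% of all genes), and Ogn and Postn lay at an unadjusted p under 0.05, where 3.44% of all genes did. The pairs of one diet all went against those of the other for 3 members, Ogn, Thbs2 and Ccdc80 (10.9% of all genes). Without RcN+ animal 2 the member median was -0.25, so the direction rested on that animal.

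The second comparison asked how the members differed between the diets, within each tissue and between animals. In adjacent normal tissue 30 of 36 members were lower in R0N+, and the median was -0.76 (0.02 over all genes). Both R0N+ arrays lay below both RcN+ arrays for 18 members, against 8.78% of all genes. They lay above for 0 members, against 11.8%. The 18 included all 5 fibrillar collagens, Dcn, Ogn, Fn1, Sparc, Postn and Thy1. Some margins were small. The lowest RcN+ and highest R0N+ values were 8.22 and 8.19 for Sparc and 6.40 and 6.35 for Fn1, while those of Postn were 5.70 and 5.32. For Col5a1 they were 4.99 and 4.96, and Col5a1 and Col4a1 lay below the negative control median on every array. The largest differences were those of Dcn (-2.86, SE 1.56), Ccdc80 (-2.49, SE 1.45) and Fn1 (-2.32, SE 1.22). Muscle markers were lower as well, in 14 of 14 striated muscle genes (median -1.09) and 11 of 11 smooth muscle genes (median -0.89), as were 30 of 37 ribosomal protein genes (median -0.21). The part of these in the diet difference was not tested.

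These sizes came mostly from 1 array. Without RcN+ animal 2 the median of the diet difference in adjacent normal tissue was -0.08, with 25 of 36 members lower, against a median of 0.00 over all genes. The remaining RcN+ array then lay above both R0N+ arrays for 19 of 36 members, where 33.7% of all genes did so. By limma 0 members passed (0% of all genes), each with an adjusted p = 1, and Col1a1 (-0.76, SE 0.28) and Postn (-0.88, SE 0.32) were at an unadjusted p under 0.05, where 2.37% of all genes were.

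In neoplasia 27 of 36 members were lower in R0N+, with a median of -0.23 (0.02 over all genes). Both R0N+ arrays lay below both RcN+ arrays for 15 members, against 23.2% of all genes, and above for 3 members, Col5a1, Col5a2 and Fap, against 26% of all genes. The 15 were Col1a1, Col1a2, Col3a1, Col6a1, Col6a3, Dcn, Lum, Bgn, Eln, Lox, Fn1, Sparc, Tnc, Thbs1 and Cd34. Dcn was lower by 3.01 on the log2 scale (SE 1.56), Lum by 1.61 (SE 1.16) and Thbs1 by 1.28 (SE 0.49). By limma 0 members passed (0% of all genes), with adjusted p from 0.851 to 0.994. Thbs1 alone was at an unadjusted p under 0.05, where 5.08% of all genes were.

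Unlike the adjacent tissue, the diet difference in neoplasia did not rest on RcN+ animal 2: without that animal the member median was -0.20 and without RcN+ animal 1 it was -0.14. However, both RcN+ neoplasia arrays had higher control separation (0.696 and 0.694) than both R0N+ arrays (0.617 and 0.60), so diet and array quality cannot be told apart within neoplasia. The ribosomal protein genes, taken as a measure of RNA quality, were lower in R0N+ neoplasia for 37 of 37 genes, with a median of -0.77. Squamous epithelial markers were lower in 12 of 13 genes (median -1.03), striated muscle markers in 11 of 14 (median -0.43) and smooth muscle markers in 9 of 11 (median -0.11), while 8 of 8 fat cell markers were higher (median 0.54). The part of these tissues in the diet difference was not tested. With control separation as a covariate the member median was 0.21, with 10 of 36 lower.

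**Figure D4:**
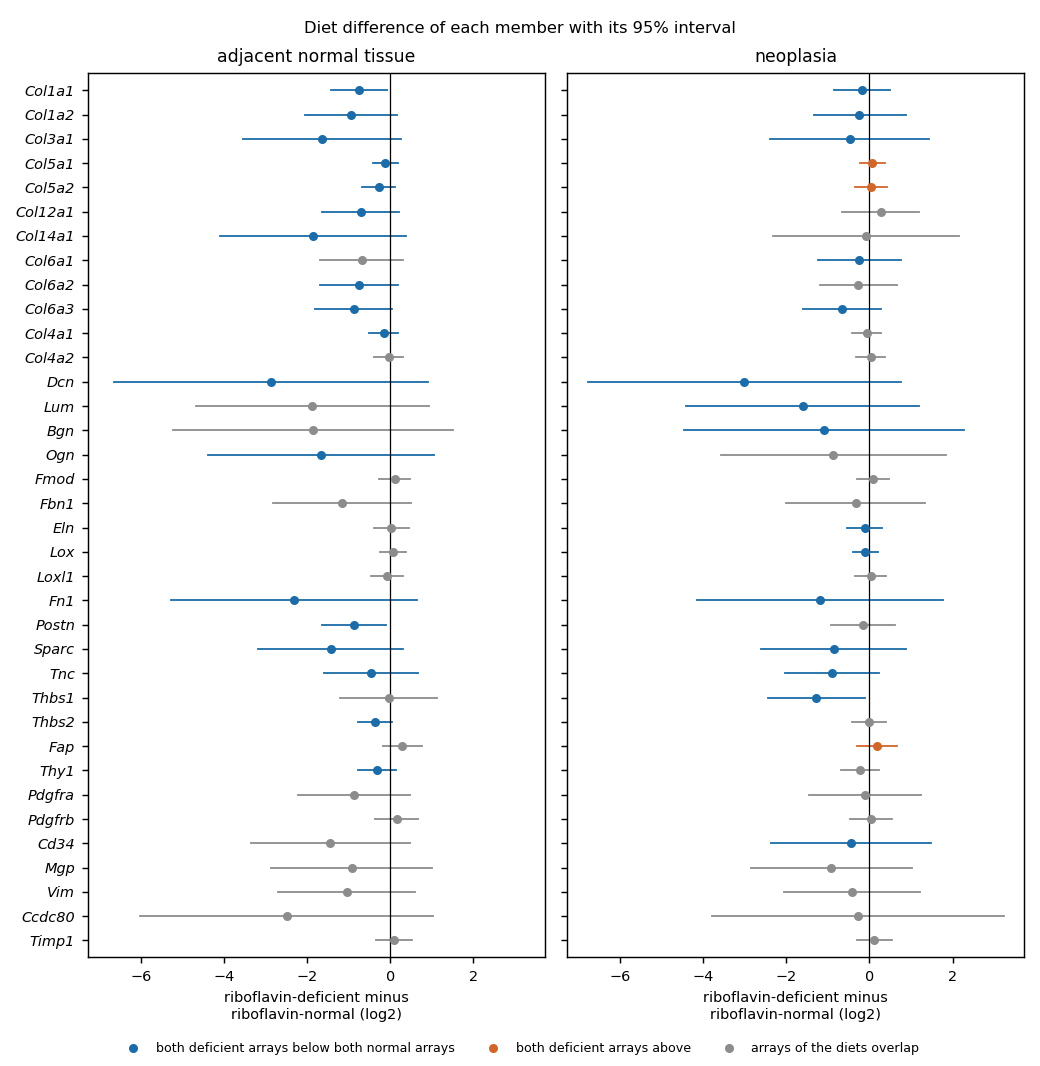
Riboflavin-deficient minus riboflavin-normal (log2) for each member in adjacent normal tissue and in neoplasia, with the 95% interval from limma. Blue marks genes whose R0N+ arrays both lay below the RcN+ arrays (18 and 15 genes), orange those above (0 and 3) and grey those that overlapped. The widest intervals in both tissues are those of Dcn, Ccdc80, Bgn and Fn1.

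Over both tissues, all 4 R0N+ arrays lay below all 4 RcN+ arrays for 8 of 36 members, against 1.37% of all genes. They lay above for 0 members, against 1.96%. The 8 were Col1a1, Col1a2, Col3a1, Col6a3, Dcn, Fn1, Sparc and Tnc. The margins were small for most of them: the lowest RcN+ and highest R0N+ values were 6.58 and 6.48 for Col1a1, 6.28 and 6.20 for Col1a2, 6.48 and 6.30 for Col3a1, and 10.47 and 10.30 for Dcn. They were 6.08 and 5.82 for Col6a3, 8.22 and 8.19 for Sparc, and both 6.40 at 2 decimals for Fn1. For Tnc they were 4.92 and 4.82, and Tnc exceeded the negative control median on 2 of the 8 arrays only. Without RcN+ animal 2, 13 members had this order, against 3.77% of all genes. Without RcN+ animal 1 there were 17, against 14.3%. After quantile normalisation 5 members had it, against 1.81% of all genes.

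Other genes of the matrix pathway were read from 5 lists. Among 24 other matrix components, such as asporin (Aspn), dermatopontin (Dpt) and the laminin chain Lama2, 16 were highest on the adjacent normal array of RcN+ animal 2. Their pair medians were 0.02, -0.77, 0.11 and -0.04, in the same order of pairs. Dpt measured 7.38 and 11.24 in RcN+ adjacent normal tissue, 8.83 and 9.64 in RcN+ neoplasia, 7.71 and 7.51 in R0N+ adjacent normal tissue and 7.45 and 7.47 in R0N+ neoplasia, with the same 3 highest arrays as Dcn and Lum. By limma 0 of the 24 passed in the mean of the pairs, and 0 were at an unadjusted p under 0.05.

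The 14 collagen processing genes, among them the hydroxylases P4ha1 and Plod2 and the collagen chaperone Serpinh1, had pair medians of 0.02, -0.14, 0.05 and 0.02. The 14 matrix proteases and inhibitors had -0.02, 0.02, 0.09 and 0.03, and the 16 TGF-beta signalling genes 0.06, -0.15, -0.02 and -0.07. The 4 genes of PDGF ligands, which signal to Pdgfra and Pdgfrb, had -0.22, 0.02, -0.16 and -0.02. In each of these lists 0 genes passed by limma in the mean of the pairs, and 0 were at an unadjusted p under 0.05. Within the proteases and inhibitors, Timp2 and Timp3 were again highest on the adjacent normal array of RcN+ animal 2 (9.35 and 10.02).

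Muscle markers shared the highest array of the members, but not their tissue difference in every pair. On the adjacent normal array of RcN+ animal 2, 10 of 11 smooth muscle and 11 of 14 striated muscle markers had their highest value. The pair medians were 0.15, -2.02, -0.36 and 0.07 for smooth muscle and -0.04, -1.76, -1.21 and 0.33 for striated muscle. Those of the members were 0.18, -0.97, 0.10 and -0.04, so that the muscle lists parted from them in R0N+ animal 1. The median level of the striated muscle list was 11.81 and 14.52 in RcN+ adjacent normal tissue, 11.74 and 11.82 in RcN+ neoplasia, 12.57 and 10.61 in R0N+ adjacent normal tissue and 11.71 and 10.86 in R0N+ neoplasia. The smooth muscle gene Acta2, also made by activated fibroblasts, measured 14.32 there and 9.62 to 12.04 elsewhere. The part of muscle tissue in the difference of the matrix genes was not tested.

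Of 11 endothelial markers, 1 was highest on that array, and their pair medians were 0.03, -0.11, 0.10 and -0.11. Of 6 pericyte markers 2 were, and of 10 macrophage markers 4. The pericyte gene Rgs5 measured 9.0 there and 6.16 to 7.69 on the others. The pericyte list as a whole did not follow it, with pair medians of 0.07, 0.01, 0.05 and 0.08. Squamous epithelial markers had pair medians of 2.19, 0.00, -1.12 and 0.13, highest in the pair of RcN+ animal 1, in which Dcn, Lum and Bgn were higher in neoplasia. The epithelial genes Krt4 and Krtdap were at or near the upper limit of the table (19.93) on most arrays and lowest in adjacent normal tissue of RcN+ animal 1 (17.79 and 19.21). Fat cell markers had a pair median of 1.21 in R0N+ animal 1, where the lipid carrier gene Fabp4 measured 12.73 in neoplasia and 7.90 to 9.06 on the other arrays. Vim and Mgp were 0.93 and 0.82 higher in neoplasia of that pair.

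**Figure D5:**
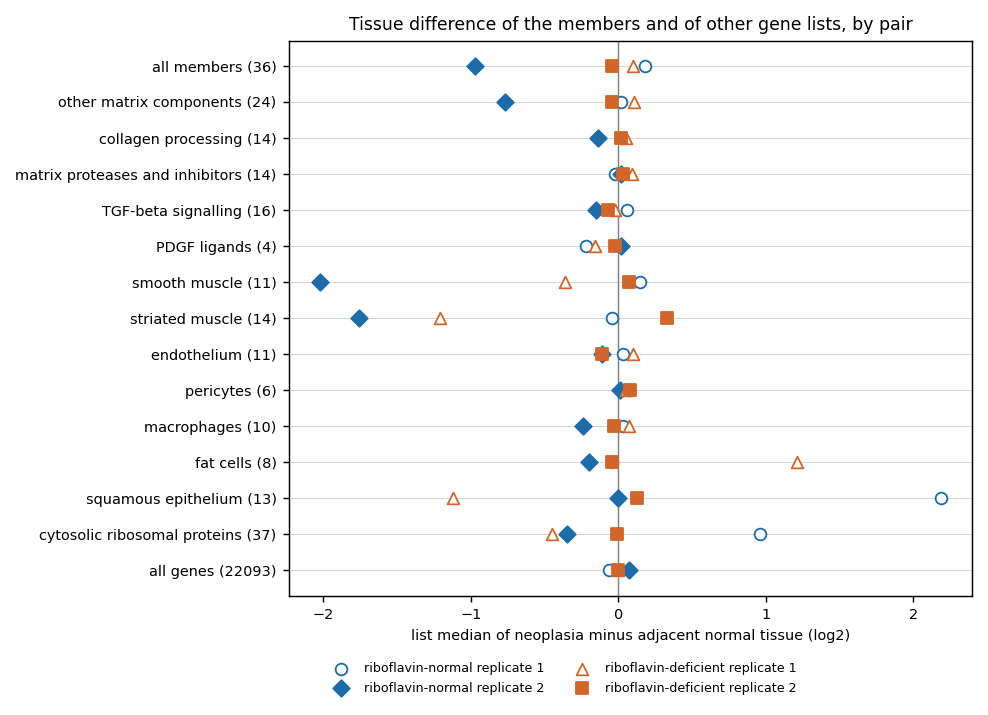
Median over each gene list (number of genes in brackets) of neoplasia minus adjacent normal tissue (log2), 1 symbol per animal. The members, the other matrix components and both muscle lists lie between -0.77 and -2.02 in RcN+ animal 2, and the endothelial, pericyte and PDGF ligand lists lie within 0.22 of 0 in every pair.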

How the data were processed

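The authors deposited 1 log2 value per probe set and array. RMA (robust multi-array average) and Expression Console are named in the submitters' processing notes. Versions and genome build are not given in the sources used here. Of 70580 probe sets, 23446 had 1 gene symbol in the platform annotation and 505 had several, while 46629 were unnamed or controls. Entrez IDs served to update symbols (22077 matched, 1 changed), and the probe set of highest mean was kept, which left 22093 genes. For 3 members (Col1a2, Col12a1, Ogn) this meant choosing between probe sets. Values ran from 2.43 to a ceiling of 19.93, which no member reached. No depth exists for arrays, and their number limits the precision.

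Differences are on the log2 scale. limma 3.58.1 in R 4.3.3 (lmFit, eBayes) was fitted over all genes with Benjamini-Hochberg adjustment. Tissue effects were fitted within animals, separately by diet (2 residual degrees of freedom). The design text pairs the tissues, the descriptions give both tissues of an animal 1 code, and their deviations from the group means correlated at 0.19 (RcN+) and 0.16 (R0N+) over genes. Diet effects used group means (4 residual degrees of freedom). Control separation compared 399 positive with 1153 negative control probe sets. The fit was tested on simulated data with known differences and noise independent between genes and arrays. That test covers the size of the estimates, and not variation that many genes share on 1 array.

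Alternatives were no animal block, quantile normalisation, cyclic loess, the upper 50% of genes, the mean of all probe sets, a variance trend, control separation as covariate, the replicate number as a block between diets, and leaving out each animal. The members, gene lists and tests were chosen with earlier results of these data known. Values on every array are given for the fibrillar collagens, proteoglycans, surface markers and the 4 other members of largest mean tissue difference. In each comparison the 3 members of largest difference are named. Members at an unadjusted p under 0.05 are named too, a choice made after their values were seen. From other lists, the 2 genes of highest mean and the 2 of lowest unadjusted p were open to naming.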

Additional observations from a re-analysis of the deposited data

Results flagged for a closer look

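In 3 of the 36 members (8.33%) both RcN+ pairs moved one way and both R0N+ pairs the other, against 10.9% of all genes. For each, the value is the neoplasia effect in R0N+ minus that in RcN+, tested by the interaction in limma. Ogn had a difference of 0.79 (SE 0.22, unadjusted p = 0.0185, limma adjusted p = 1), from pair values of -0.70 and -0.53 in RcN+ and 0.11 and 0.26 in R0N+. Its second probe set had -0.54 and -0.29, and 0.12 and -0.09. Thbs2 had a difference of 0.35 and Ccdc80 one of 2.22 (limma adjusted p = 1 for both). Groups of 2 arrays were too small to test for samples far from the others.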

How the results depend on the processing

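In each of the 6 comparisons limma called 0 genes under every alternative run, with unadjusted counts in the report, so nothing was called that could be lost. Without each animal in turn, the member median ranged from -0.44 to 0.12 for the mean tissue effect, -0.97 to 0.18 within RcN+, -0.04 to 0.10 within R0N+ and -0.25 to 0.94 for the diet difference of that effect. For the diet effect it ranged from -1.33 to -0.08 in adjacent normal tissue and from -0.20 to -0.14 in neoplasia. The medians of opposite sign for the mean effect, within RcN+ and for the diet difference came from leaving out RcN+ animal 2. With control separation as covariate the median was 0.15 within R0N+ and 0.21 for diet in neoplasia; these values moved past the spread between replicates, and the cause was not tested. Without the animal block the mean tissue median was -0.15, as with it. With the replicate number as a block between diets the diet medians were -0.76 in adjacent normal tissue and -0.23 in neoplasia, as without it. In this balanced design neither setting could change a difference, only its SE and p. The equal medians therefore say nothing of robustness, and no call changed. Settings chosen after seeing the data were those for counts of members. The 8 members with all R0N+ arrays below all RcN+ arrays were 5 after quantile normalisation (1.81% of all genes). Without 1 animal they were 10 to 17 (3.77% to 14.3% of all genes). The 18 in adjacent normal tissue were 13 after quantile normalisation (11.5%) and 19 to 29 without 1 animal (21.2% to 33.7%). The 15 in neoplasia were 20 (33.6%) and 17 to 22 (31.7% to 39.1%) in these settings. Without 1 animal the comparison was against fewer arrays, and the shares of all genes rose as well. Signal over background limits the members near the negative control median.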
